A study of Mus musculus with 40 samples.

Results

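Tumors of 5 mice treated with anti-TGF-β + anti-PD-1 FcS were compared with tumors of 5 mice treated with the isotype control, 10 of the 40 mice of the series. The 2 groups were taken from the treatment that the sample labels give to each column of the count table, and all measured genes were considered. BALB/c mice, 6 to 12 weeks old, received 1000000 CT26 cells, a colon carcinoma line of this strain, under the skin. The antibodies were given into the peritoneum on days 6, 9 and 12, and the animals' tumors were taken on day 13. TGF-β1, TGF-β2 and TGF-β3 are all blocked by the anti-TGF-β antibody used, 1D11. The anti-PD-1 antibody is an FcSilent form, made so that its Fc part does not engage Fc receptors. The isotype control is motavizumab as a mouse IgG2a, which binds a viral protein that the mice lack. All 10 mice carried the same transplanted tumor line in an immunocompetent host, so tumor cells, stroma and infiltrating leukocytes were measured together in bulk RNA of a tumor fragment. In such samples more cells of a type and more RNA per cell cannot be told apart.

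TGF-β is secreted in a latent form, bound to proteins that anchor it in the matrix or on cells, and once released it signals through paired serine/threonine kinase receptors to Smad proteins. It induces matrix genes in fibroblasts and restrains T cells, and regulatory T cells are one of its sources in tumors. PD-1 is an inhibitory receptor of activated T cells, and its ligand PD-L1, encoded by Cd274, is itself induced by interferon-γ (IFNγ). IFNγ made by T and NK cells acts through transcription factors such as IRF1 on genes for antigen presentation, chemokines and guanosine triphosphatases. The comparison asks which of these programs differed in tumors when both pathways were blocked.

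Library sizes were alike, from 12156621 to 16232524 counted reads per tumor. The libraries numbered 41 to 60 contain Y-linked transcripts and those numbered 61 to 80 contain Xist, and each group has 2 mice of the former and 3 of the latter. Mouse 53, in the combination group, stood apart on the first principal component of the 40 mice (43.9, against -27.4 to -9.88 in the other 4 treated mice and -25.6 to -1.94 in the isotype mice), and it had the highest score for stromal and pan-leukocyte genes of the 10 mice. The libraries also differed in how the level of a gene followed the length of its transcript. In the 12761 genes with a length in the annotation (86.5% of those tested), divided into 5 bins by length, the median deviation of the shortest bin minus that of the longest bin was positive in treated mice 57, 62, 66 and 68 (0.44, 0.75, 0.28 and 0.56 on the log2 scale) and negative in treated mouse 53 (-0.28). In the isotype group it was negative in mice 46, 51, 74 and 78 (-0.14, -0.21, -0.13 and -0.13) and positive in mouse 63 (0.42). Thus 4 of 5 treated libraries and 1 of 5 isotype libraries leaned toward short transcripts. Whether this reflects RNA quality, library construction or the tumors was not tested. Values with each library's length trend removed are given beside many of the gene lists and some of the named genes. A value printed without one may also move: Ccl7 went from a log2 fold change of 0.81 to 0.57, Ifi35 from 0.60 to 0.42 and Lgals9 from 0.27 to 0.12.

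**Figure D1:**
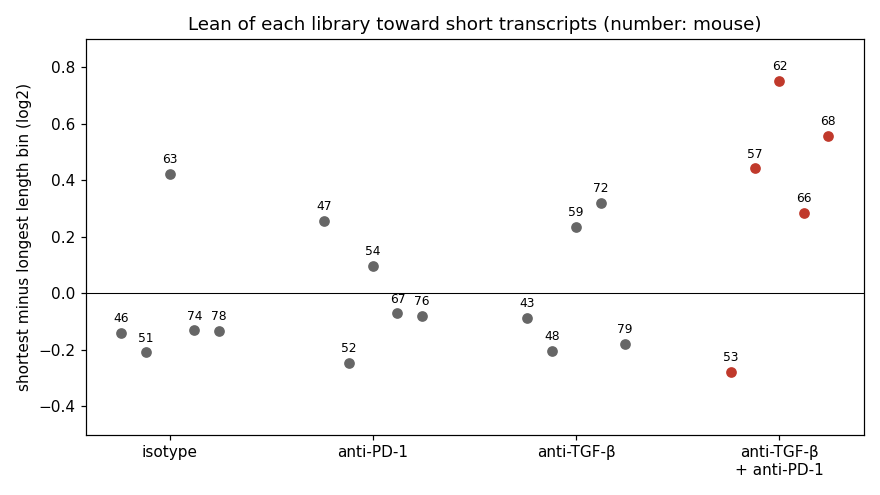
Each point is 1 tumor, numbered by library; the vertical axis is the median deviation (log2 CPM minus the gene's mean over all mice) of the shortest of 5 length bins of genes minus that of the longest, in 4 groups of 5 mice. Treated mice 57, 62, 66 and 68 and isotype mouse 63 lie above 0, from 0.28 to 0.75, and mouse 53 lies at -0.28.

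No gene passed the test across 14760 genes. With edgeR's quasi-likelihood test, 0 genes (0.0%) had a Benjamini-Hochberg adjusted p under 0.05, and the smallest adjusted p was 0.0891, for Isg15 among others. At an unadjusted p under 0.05, which is a description and not a call, 1253 genes were higher (8.49%) and 1719 lower (11.6%). The 5 treated mice all lay above the 5 isotype mice for 256 genes (1.73%) and all below for 191 genes (1.29%). DESeq2's Wald test gave an adjusted p under 0.05 to 64 higher genes (0.512%) and 73 lower genes (0.584%) of the 12495 to which it assigned one. The result rested on single mice: without treated mouse 53, 717 genes were called higher (4.8%) and 1289 lower (8.62%), and without isotype mouse 63, 259 were called higher and 471 lower. Mice 53 and 63 are also those whose length trend runs against the rest of their group.

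Across genes the difference between the groups followed transcript length. The Spearman correlation between log2 fold change and length was -0.45 over 12761 genes, which share the same 10 libraries. In the shortest bin of genes, with a median length of 1375 bases, the median log2 fold change was 0.21, and 22.3% of genes were higher at an unadjusted p under 0.05 against 1.41% lower. In the longest bin, with a median length of 6759 bases, the median was -0.18, and 1.53% were higher against 27.9% lower. When the length trend of each library was removed, 826 genes were higher (6.47%) and 1027 lower (8.05%) at an unadjusted p under 0.05, none had an adjusted p under 0.05, and leaving out mouse 53 gave 130 higher and 238 lower calls. Counts of a group of genes are from counts as deposited unless the removal of the length trend is named. The shares of all genes against which they are read are 8.49% higher and 11.6% lower at an unadjusted p under 0.05, or 6.47% and 8.05% with the length trend removed.

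**Figure D2:**
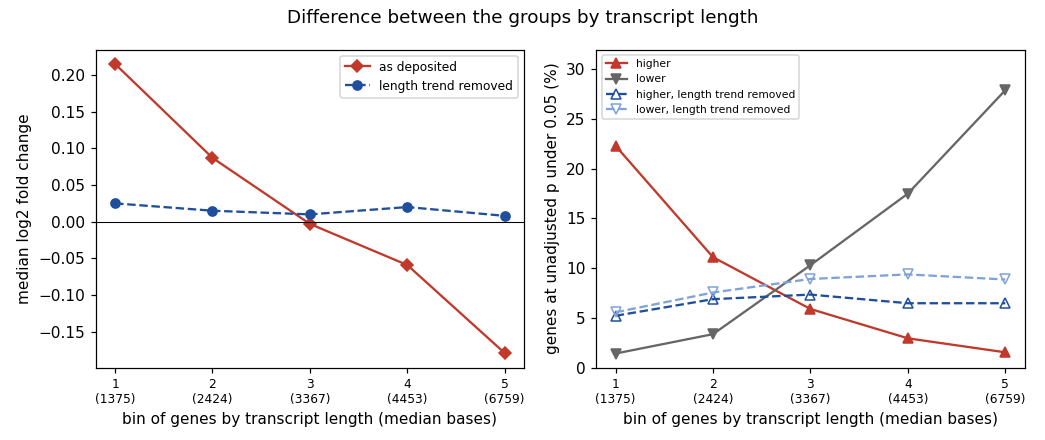
Genes are divided into 5 bins by transcript length (horizontal axis, with the median length in bases); the left panel plots the median log2 fold change of anti-TGF-β + anti-PD-1 against isotype and the right panel the percentage of genes at an unadjusted p under 0.05. From counts as deposited the median goes from 0.21 in the shortest to -0.18 in the longest bin, and with the length trend removed it lies between 0.01 and 0.03 in every bin.

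**Figure D3:**
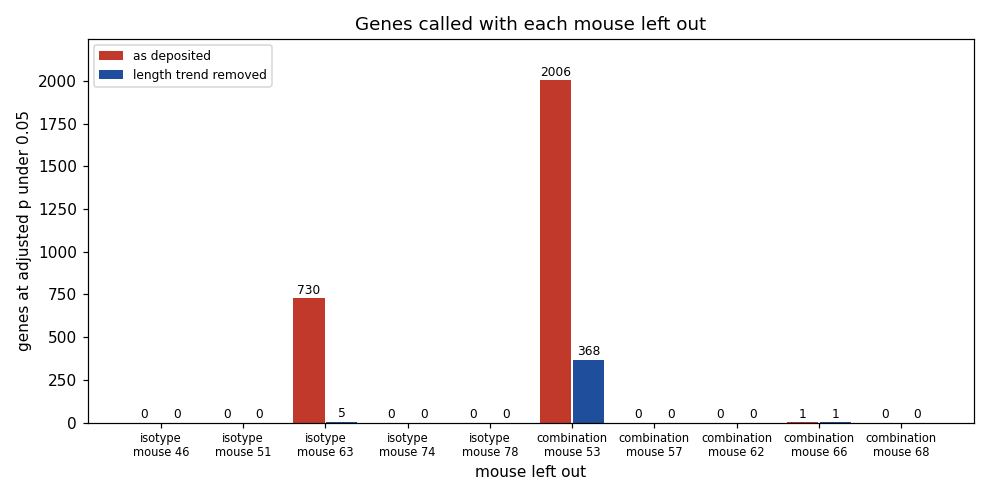
Bars give the number of genes at an adjusted p under 0.05 with each of the 10 mice left out in turn, from counts as deposited and with the length trend removed. Without mouse 53 the numbers are 2006 and 368, without mouse 63 they are 730 and 5, and without each of the other mice they are 0 or 1.

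Interferon-stimulated genes had higher levels in treated tumors, as single genes at an unadjusted p under 0.05 and as a group in their median. Promoters of 5 of them are shown because letters bound by interferon-activated factors are known in genes of this kind. For each gene the window shown is the first that held a match, so its marked letters follow from that choice. Shown are the windows from 250 bases before to 50 bases after the annotated start, from RefSeq on GRCm38.p6, for the ubiquitin-like modifier Isg15, the chemokine Cxcl10, the signalling inhibitor Socs1, the GTPase Igtp and the transcription factor Irf1. Capitals mark matches to GAAA followed after any 2 bases by another GAAA, the core of the interferon-stimulated response element (ISRE) to which IRF proteins and the ISGF3 complex bind, and to TTCNNNGAA, the gamma-activated site (GAS) of promoters that respond to IFNγ, each on either strand.
Isg15 (chr4:156200769-156201068, minus strand): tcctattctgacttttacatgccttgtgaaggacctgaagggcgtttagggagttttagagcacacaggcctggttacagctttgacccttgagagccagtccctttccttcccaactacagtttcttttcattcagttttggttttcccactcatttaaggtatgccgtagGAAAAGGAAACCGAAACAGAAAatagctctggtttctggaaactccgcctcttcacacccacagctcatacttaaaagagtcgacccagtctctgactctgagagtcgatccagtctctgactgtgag
Cxcl10 (chr5:92348840-92349139, minus strand): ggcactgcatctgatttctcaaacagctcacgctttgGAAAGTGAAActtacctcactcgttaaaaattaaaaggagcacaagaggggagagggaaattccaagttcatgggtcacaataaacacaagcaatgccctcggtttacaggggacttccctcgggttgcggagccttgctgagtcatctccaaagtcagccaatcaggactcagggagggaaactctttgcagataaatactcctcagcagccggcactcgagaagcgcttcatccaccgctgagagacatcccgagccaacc
Socs1 (chr16:10785487-10785786, minus strand): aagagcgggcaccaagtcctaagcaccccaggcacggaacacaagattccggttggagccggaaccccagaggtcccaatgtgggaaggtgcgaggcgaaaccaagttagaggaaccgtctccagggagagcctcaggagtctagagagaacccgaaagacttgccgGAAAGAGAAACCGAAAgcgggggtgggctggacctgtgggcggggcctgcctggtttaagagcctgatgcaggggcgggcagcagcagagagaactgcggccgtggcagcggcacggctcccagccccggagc
Igtp (chr11:58199306-58199605, plus strand): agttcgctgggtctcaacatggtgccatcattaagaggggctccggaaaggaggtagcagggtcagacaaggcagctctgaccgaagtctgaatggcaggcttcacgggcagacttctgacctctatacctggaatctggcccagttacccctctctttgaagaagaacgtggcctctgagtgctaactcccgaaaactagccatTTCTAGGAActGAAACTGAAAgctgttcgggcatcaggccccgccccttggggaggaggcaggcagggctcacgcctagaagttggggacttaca
Irf1 (chr11:53769764-53770063, plus strand): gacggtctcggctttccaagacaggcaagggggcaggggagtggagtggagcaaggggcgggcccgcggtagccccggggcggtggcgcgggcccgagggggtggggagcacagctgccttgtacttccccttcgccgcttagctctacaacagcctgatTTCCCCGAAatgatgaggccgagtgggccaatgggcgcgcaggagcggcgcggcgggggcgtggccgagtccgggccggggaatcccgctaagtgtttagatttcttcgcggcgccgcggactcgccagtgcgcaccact
The Isg15 window holds 3 overlapping ISRE matches, the first beginning 78 bases before the start, and Socs1 holds 2 overlapping matches from 83 bases before it. Cxcl10 has 1 ISRE match 213 bases before the start, Igtp has a GAS match at 45 bases and an ISRE match at 34 bases, and Irf1 has 1 GAS match at 90 bases. Of 32851 promoter windows in the mouse, 3.44% hold the ISRE letters and 8.3% the GAS letters. By gene, 3.99% of 27025 genes have the ISRE letters in any window, against 15 of 33 type I interferon-stimulated genes with a window, 5 of 5 guanylate-binding proteins and 5 of 5 immunity-related GTPases. Elsewhere the ISRE letters were in 1 of 2 interferon-inducible chemokines with a window, 3 of 14 genes of the IFNγ core, 4 of 14 of MHC class I presentation, 1 of 5 immunoproteasome and PA28 genes and 1 of 11 of MHC class II presentation. The GAS letters were in 9.55% of all genes, in 6 of 33 type I interferon-stimulated genes, 5 of 14 genes of the IFNγ core, 2 of 5 guanylate-binding proteins and 4 of 5 immunity-related GTPases, and in 0 of 14 MHC class I genes. A match is a run of letters and was not measured as a binding site here.

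Isg15, which encodes a ubiquitin-like protein conjugated to targets in interferon-treated cells, had the smallest p of all genes. Its level was 79.7, 58.4, 73.3, 63 and 51.3 CPM (counts per 1000000 counted reads) in isotype mice 46, 51, 63, 74 and 78, and 103, 113, 115, 118 and 139 CPM in treated mice 53, 57, 62, 66 and 68. All 5 treated tumors lay above all isotype tumors, mouse 53 included. The log2 fold change was 0.85 (SE 0.163, adjusted p = 0.0891 by edgeR and 0.0047 by DESeq2), and 0.59 with the length trend removed (adjusted p = 0.194 by edgeR).

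Of 46 type I interferon-stimulated genes tested, 26 were higher and 0 lower at an unadjusted p under 0.05, and the median log2 fold change was 0.43 against 0.02 over all genes. With the length trend removed the counts were 28 and 0 and the median 0.40. Leaving out each mouse in turn moved the median between 0.38 and 0.51. DESeq2 called 8 of the 46 (0.512% of all genes were called higher), and edgeR without mouse 53 called 15 (4.8%), all higher. Without mouse 53 and with the length trend removed edgeR called 0 of the 46, and the median was 0.33. Ifi204, a member of the DNA-sensing family of interferon-inducible proteins, was at 111 to 146 CPM in isotype tumors and at 172 to 203 CPM in treated tumors, a log2 fold change of 0.51 (SE 0.118). Ifit3b, of the family that binds foreign RNA, was at 10.9 to 13 CPM against 13.9 to 22 CPM, and treated mouse 62 was the lowest of its group. Its reads may be shared with its near-identical copy Ifit3, so the level of either is uncertain. For Ifi35, whose log2 fold change was 0.60 (SE 0.149), mouse 53 at 70.7 CPM lay within the isotype range of 56.8 to 79.2 CPM and the other 4 treated mice lay at 103 to 120 CPM. Ifitm6, a relative of the interferon-induced membrane proteins, was at 2.32 to 4.85 CPM against 5.71 to 9.4 CPM.

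The 3 interferon-inducible chemokines that attract CXCR3-bearing T and NK cells were all higher at an unadjusted p under 0.05. Cxcl10 was at 95.1, 76.1, 102, 69.3 and 74.3 CPM in isotype mice and at 104, 157, 148, 185 and 195 CPM in treated mice, and the highest isotype mouse, 63, lay just under mouse 53. Its log2 fold change was 0.92 (SE 0.237, adjusted p = 0.108 by edgeR and 0.0273 by DESeq2) and 0.83 with the length trend removed. Cxcl11 had a log2 fold change of 1.15 (SE 0.319), with mouse 53 at 13.3 CPM inside the isotype range of 6.91 to 15.3 CPM. Cxcl9 was at 89.5 to 240 CPM against 233 to 361 CPM, with a log2 fold change of 0.82 (SE 0.396, adjusted p = 0.24 by edgeR), and it was no longer at an unadjusted p under 0.05 with the length trend removed (0.79, adjusted p = 0.364 by edgeR).

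**Figure D4:**
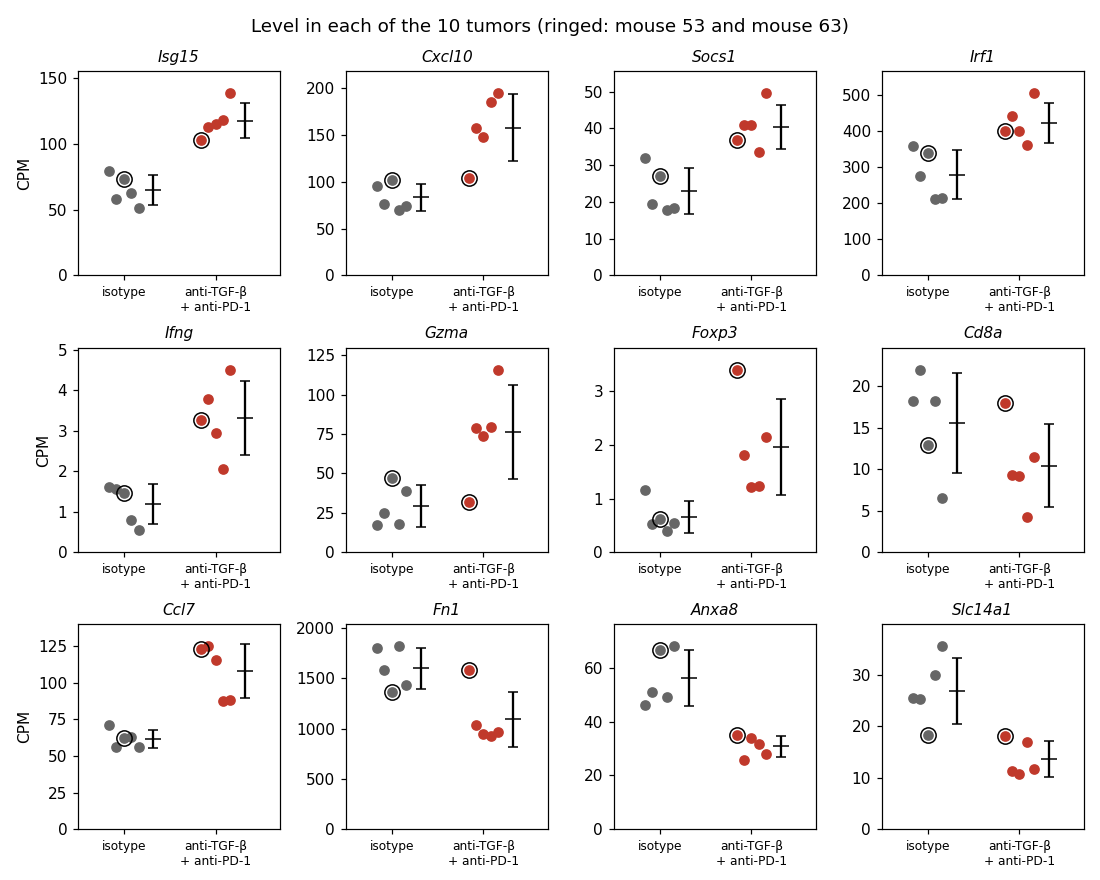
Points give the level of 12 genes in each tumor in CPM (5 isotype and 5 anti-TGF-β + anti-PD-1 mice), with the mean ± SD beside them; mice 53 and 63 are ringed. For Isg15 the treated tumors (103 to 139 CPM) lie above all isotype tumors (51.3 to 79.7 CPM), for Cd8a the groups overlap, and for Anxa8 the treated tumors (25.8 to 35.1 CPM) lie below the isotype tumors (46 to 68 CPM).

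In the core of IFNγ signalling, 9 of 19 genes were higher and 0 lower at an unadjusted p under 0.05 (8.49% of all genes were higher), and all treated mice lay above all isotype mice for 6 of the 19 (1.73% of all genes). The median log2 fold change was 0.29, and 0.36 with the length trend removed, when 8 were higher (6.47% of all genes). Ifng itself, the ligand, was scarce. It was at 1.61, 1.57, 1.46, 0.786 and 0.554 CPM in isotype tumors and 3.26, 3.77, 2.95, 2.06 and 4.51 CPM in treated tumors, with no overlap, and its log2 fold change was 1.46 (SE 0.475, adjusted p = 0.141 by edgeR). Irf1, a transcription factor that IFNγ induces, was at 211 to 358 CPM against 362 to 506 CPM (0.60, SE 0.247), and its log2 fold change of 0.50 with the length trend removed was no longer at an unadjusted p under 0.05. Socs1, a feedback inhibitor of the receptor kinases, was at 17.8 to 31.8 CPM against 33.5 to 49.7 CPM (0.81, SE 0.206), and Socs3 had a log2 fold change of 0.34 (SE 0.118). For each of Ifng, Irf1 and Socs1 every treated tumor lay above every isotype tumor, mouse 53 included.

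Among the interferon-induced GTPases that attack the membranes around intracellular microbes, 3 of 11 guanylate-binding proteins and 2 of 8 immunity-related GTPases were higher at an unadjusted p under 0.05 (8.49% of all genes), and 0 were lower. With the length trend removed 2 of 11 and 2 of 8 were higher (6.47% of all genes). DESeq2 called 0 in either family, and so did edgeR without mouse 53. All 19 had a positive log2 fold change (7801 of 14760 over all genes), with medians of 0.69 and 0.59 (0.64 and 0.57 with the length trend removed). Gbp3 was at 136 to 241 CPM against 242 to 381 CPM and Igtp at 133 to 310 CPM against 317 to 533 CPM, neither with overlap. Gbp2 was at 236 to 438 CPM against 415 to 688 CPM, and mouse 62 lay inside the isotype range. Its log2 fold change of 0.69 (SE 0.381, adjusted p = 0.296 by edgeR) was not at an unadjusted p under 0.05. These families hold close paralogs, so reads may be split among members.

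Antigen presentation genes had small positive differences. Of 18 genes of MHC class I presentation, 5 were higher and 0 lower at an unadjusted p under 0.05 (median log2 fold change 0.27, and 0.25 with the length trend removed). Tapbp, the tapasin that loads peptide on class I molecules, was at 415 to 583 CPM against 587 to 893 CPM, without overlap (0.51, SE 0.186). The classical class I gene H2-K1 had a log2 fold change of 0.30 (SE 0.136), which was 0.17 and no longer at an unadjusted p under 0.05 with the length trend removed, and the non-classical H2-T23 one of 0.64 (SE 0.24). B2m, the light chain, was higher in all 5 treated tumors (2330 to 2580 CPM against 2130 to 2250 CPM), but its log2 fold change was 0.17 (adjusted p = 0.371 by edgeR) and turned to -0.06 with the length trend removed. All 5 immunoproteasome and PA28 genes, which make the peptides that class I molecules carry, were higher at an unadjusted p under 0.05 (median 0.50), and with the length trend removed 3 of 5 were (median 0.37). Psme2 and Psmb10 had log2 fold changes of 0.62 (SE 0.169) and 0.74 (SE 0.221), and Psmb9 one of 0.49 (SE 0.241), and for each of the 3 mouse 53 lay inside the isotype range. With the length trend removed Psme2 was at 0.36, and Psmb9, at 0.47, was no longer at an unadjusted p under 0.05. The constitutive proteasome, which degrades proteins in all cells, also had 21 of 31 genes higher and 1 lower (median 0.24), and with the length trend removed 15 higher and 1 lower (median 0.12). Its transcripts have a median length of 1819 bases, against 1907 for the immunoproteasome genes, and Psma5 moved from a log2 fold change of 0.44 to 0.23 and Psmb2 from 0.37 to 0.12. Of 15 genes of MHC class II presentation 3 were higher, with a median of 0.60, and with the length trend removed 1 was, near the 6.47% of all genes. H2-Oa, a regulator of class II loading found in B cells, had a log2 fold change of 2.17 (SE 0.706) with 4.58 CPM in mouse 68 and 0.529 to 1.1 CPM in the other treated mice, and of 1.14 without mouse 68. Ciita, the master regulator of class II genes, was at 11.8 to 26.2 CPM against 13.7 to 39.4 CPM. Its log2 fold change was 0.59 (SE 0.62), and 0.37 without mouse 53.

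**Figure D5:**
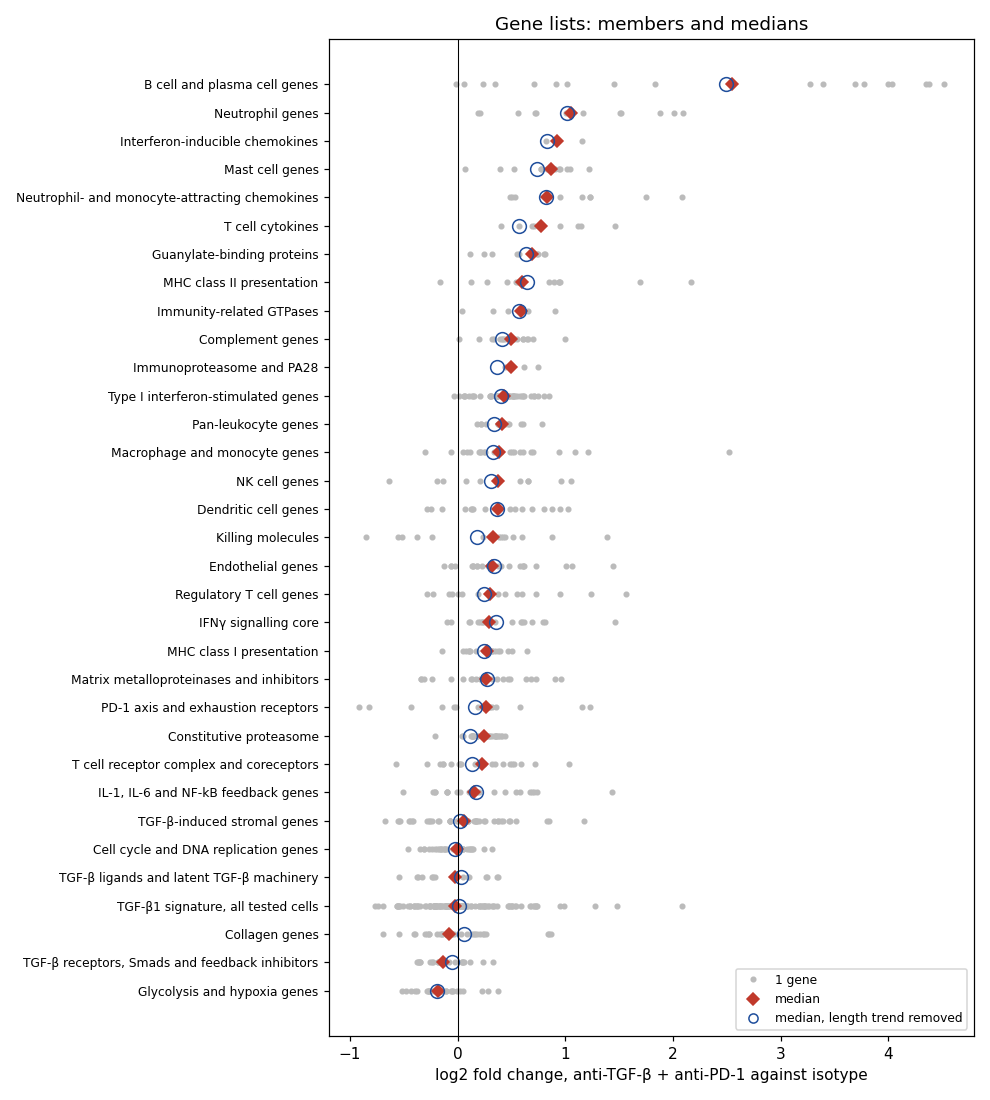
Each row is a gene list; grey points are the log2 fold changes (anti-TGF-β + anti-PD-1 against isotype) of its genes, red diamonds their median, and open circles the median with the length trend of each library removed. Medians of interferon lists lie between 0.27 and 0.92 and stay between 0.25 and 0.83 after the removal, and the constitutive proteasome moves from 0.24 to 0.12.

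Lymphocyte genes did not move as one group. Of 21 genes of the T cell receptor complex and its coreceptors, 1 was higher and 0 lower at an unadjusted p under 0.05. That gene was Cd4, at 1.36 to 2.76 CPM against 1.81 to 7.27 CPM (1.03, SE 0.452), with mice 53 and 68 above all isotype mice, and without mouse 68 its log2 fold change was 0.60. Cd8a, the coreceptor of cytotoxic T cells, was at 18.2, 22, 12.9, 18.2 and 6.51 CPM in isotype tumors and 18, 9.29, 9.22, 4.2 and 11.5 CPM in treated tumors, and its log2 fold change of -0.57 (SE 0.654, adjusted p = 0.631 by edgeR) was within the spread of the groups. Among 17 killing molecules 2 were higher, a share near the 8.49% of all genes: Gzma (1.38, SE 0.346), at 17.1 to 47.4 CPM against 32.1 to 116 CPM, and Gzmb (0.88, SE 0.396, and 0.74 with the length trend removed), at 34.7 to 81.8 CPM against 81.8 to 135 CPM. Only mouse 53 overlapped the isotype range for Gzma, and with the length trend removed 1 of the 17 was higher, Gzma. Prf1, the pore-forming protein, had a log2 fold change of 0.23 (SE 0.388). Of 9 T cell cytokines 4 were higher, Ifng, Ccl3, Ccl4 and Xcl1, and with the length trend removed Ifng and Ccl4 were. Tnf had a log2 fold change of 0.69 (SE 0.342, adjusted p = 0.253 by edgeR). Of 12 NK cell genes 4 were higher (8.49% of all genes) and, with the length trend removed, 1 was, near the 6.47% of all genes. It was Klrb1c (1.06, SE 0.335), which encodes the NK1.1 receptor family member.

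Regulatory T cells suppress other T cells, and Foxp3 is their defining transcription factor. Foxp3 was at 1.17, 0.523, 0.625, 0.393 and 0.554 CPM in isotype tumors and 3.41, 1.82, 1.21, 1.24 and 2.15 CPM in treated tumors, with no overlap. The log2 fold change was 1.56 (SE 0.488, adjusted p = 0.133 by edgeR) and 1.60 with the length trend removed. Of the 18 regulatory T cell genes 4 were higher (8.49% of all genes) and 0 lower, with a median of 0.31 that was 0.13 without mouse 53, and with the length trend removed only Foxp3 was at an unadjusted p under 0.05, a share under the 6.47% of all genes. Tnfrsf18, which encodes GITR, was at 1.94 to 3.06 CPM against 3.29 to 4.69 CPM (0.73, SE 0.295, and 0.53 with the length trend removed). Lrrc32, which encodes GARP, the receptor that holds latent TGF-β1 on these cells, was at 1.66 to 5.75 CPM against 3.54 to 9.7 CPM (0.37, SE 0.442), with mouse 53 alone above the isotype range, and its log2 fold change was 0.04 without that mouse. Pdcd1, the gene of PD-1 itself, was at 6.65 to 14.4 CPM against 2.31 to 10.8 CPM (-0.83, SE 0.617, adjusted p = 0.445 by edgeR). Cd274 was at 58.5 to 124 CPM against 79.4 to 230 CPM, and its log2 fold change of 0.58 (SE 0.408) was 0.25 without mouse 53. Of the 16 PD-1 axis and exhaustion genes 2 were higher and 1 lower at an unadjusted p under 0.05, shares near or under those of all genes (8.49% and 11.6%), with a median of 0.26 that was 0.05 without mouse 53, and with the length trend removed 0 were higher and 1 lower. The higher genes were Ido1, an enzyme that degrades tryptophan (1.23, SE 0.542), and Lgals9, which encodes galectin 9 (0.27, SE 0.102), and the lower one was Tigit, an inhibitory receptor of T and NK cells (-0.43, SE 0.196).

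The summed level of 12 pan-leukocyte genes was 1420 to 1640 CPM in isotype tumors and 1740 to 2150 CPM in treated tumors, with no overlap. Their median log2 fold change was 0.41, and 2 of 12 were higher at an unadjusted p under 0.05, Cd52 and Arhgdib. With the length trend removed the median was 0.33 and 0 of 12 were. Ptprc, which encodes CD45, was at 107 to 176 CPM against 93.8 to 243 CPM, with mouse 53 highest and mouse 62 lowest of all 10 (log2 fold change 0.18, SE 0.417). How far leukocyte content contributed to the interferon genes was not tested.

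Chil3, a chitinase-like protein of monocytes and alternatively activated macrophages, was at 0.618, 0.299, 0.278, 0.0786 and 0.346 CPM in isotype tumors and 1.82, 2.4, 1.74, 1.15 and 2.56 CPM in treated tumors (2.52, SE 0.575, adjusted p = 0.106 by edgeR), and its low level allows few reads per library. Ly6c2, a marker of inflammatory monocytes, was at 9.14 to 15.2 CPM against 19.3 to 32 CPM (0.94, SE 0.298). Of 24 macrophage and monocyte genes 3 were higher, a share near the 8.49% of all genes, with a median of 0.39, which was 0.14 without mouse 53. Ccl7, a monocyte-attracting chemokine, was at 55.9 to 71.2 CPM against 87.5 to 125 CPM (0.81, SE 0.184, adjusted p = 0.106 by edgeR and 0.0195 by DESeq2). Ccl2, its neighbour in the same chemokine cluster, was at 208 to 290 CPM against 307 to 405 CPM (0.50, SE 0.173) and had a log2 fold change of 0.28 with the length trend removed (adjusted p = 0.498 by edgeR). Of 13 chemokines that attract neutrophils and monocytes 6 were higher and 0 lower (median 0.83, and 4 higher with the length trend removed). Neutrophil genes had 5 of 13 higher (median 1.06, and 2 with the length trend removed). Red blood cell genes, a marker of blood in the fragment, had 1 of 9 higher and all 9 with a positive log2 fold change (median 1.21, and 0.92 with the length trend removed). Their summed level was 36.8 to 103 CPM in isotype tumors and 62.6 to 257 CPM in treated tumors, and their part in the neutrophil and endothelial values was not tested. S100a8, an abundant neutrophil protein, was at 10.4 CPM in isotype mouse 46 and 0.554 to 3.81 CPM in the other isotype mice, against 2.55 to 26.2 CPM in treated mice. Sod2, a mitochondrial superoxide dismutase induced by NF-κB and interferons, was at 71.6 to 82.1 CPM against 86.2 to 117 CPM, with a log2 fold change of 0.44 (SE 0.0888) and of 0.60 with the length trend removed (adjusted p = 0.0886 by edgeR).

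The B cell and plasma cell list, with 11 of 18 genes higher at an unadjusted p under 0.05 and a median of 2.55, rested on mouse 68. Its mean log2 CPM was 4.53 in mouse 68, 1.17 to 1.4 in the other treated mice and 0.55 to 1.31 in isotype mice. Igkc, the antibody light chain constant region, was at 314 CPM in mouse 68 and 4.04 to 6.21 CPM in the other treated mice, against 1.02 to 10.3 CPM in isotype mice. Without mouse 68 the median of the list was 0.41. Mast cell genes had 3 of 13 higher (1 with the length trend removed, near the 6.47% of all genes) with a median of 0.87, which was 0.31 without mouse 53, and adipocyte genes, of which 0 of 13 passed an unadjusted p of 0.05, had a median of 0.71 that was -0.12 without mouse 53. Of 24 endothelial genes 5 were higher, against 8.49% of all genes, and 0 lower (3 higher with the length trend removed, against 6.47%), among them the tight junction gene Cldn5 (1.01, SE 0.371), with isotype mouse 63 at 7.71 CPM above mice 53 and 66.

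In the TGF-β pathway itself the differences were few and small. None of the ligands differed beyond its spread: Tgfb1 was at 88.7 to 110 CPM against 91.2 to 112 CPM (log2 fold change 0.11, SE 0.164), Tgfb2 at 0.629 to 1.2 CPM against 0.539 to 1.24 CPM (0.10, SE 0.339) and Tgfb3 at 24.9 to 48.2 CPM against 23.8 to 35.3 CPM (-0.24, SE 0.165). Of the 16 genes for ligands and latent TGF-β machinery, 4 were lower at an unadjusted p under 0.05 (11.6% of all genes), while in every treated mouse 4 lay below all isotype mice and 1 above them, Nrros, a relative of GARP that tethers latent TGF-β1 (0.36, SE 0.245), named after its values were seen. Over all genes 1.29% lay below and 1.73% above. Ltbp4 and Ltbp2, which encode matrix proteins that bind latent TGF-β, were among both. Ltbp4 was at 378 to 440 CPM against 284 to 352 CPM (-0.37, SE 0.164) and Ltbp2 at 13.1 to 18.2 CPM against 8.12 to 13 CPM (-0.54, SE 0.234). With the length trend removed they were at -0.24 and -0.35, neither at an unadjusted p under 0.05. The genes of this list are long (median 5558 bases), and with the length trend removed 1 of 16 was lower, a share under the 8.05% of all genes. It was Itgav, the αv subunit of the integrins that release TGF-β (-0.18).

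Of 22 genes for TGF-β receptors, Smads and feedback inhibitors 5 were lower (11.6% of all genes) and 0 higher at an unadjusted p under 0.05, with a median of -0.14, and with the length trend removed 3 were lower (8.05% of all genes), with a median of -0.05. Zfyve9, the anchor SARA that brings Smads to the receptor, was at 21.3 to 28.8 CPM against 18.5 to 24.3 CPM (-0.35, SE 0.092, adjusted p = 0.108 by edgeR and 0.0371 by DESeq2, and -0.17 with the length trend removed), and isotype mouse 63 was the lowest of its group. Smad4, the shared partner of receptor Smads, had a log2 fold change of -0.18 (SE 0.0744). The feedback genes Smad7 and Skil, which TGF-β induces, had log2 fold changes of -0.23 (SE 0.135) and -0.35 (SE 0.181), at adjusted p = 0.331 and 0.264 by edgeR, and of -0.16 and -0.17 with the length trend removed. Of 46 stromal genes that TGF-β induces, 6 were lower and 0 higher at an unadjusted p under 0.05, a share near the 11.6% of all genes, with a median of 0.06 that was -0.09 without mouse 53, and 4 were lower with the length trend removed. They include Loxl4, a collagen cross-linking oxidase (-0.68, SE 0.214, and -0.65 with the length trend removed), Fbln2, a matrix glycoprotein (-0.41, SE 0.132), and Plod2, a collagen lysyl hydroxylase (-0.46, SE 0.189). Fn1, fibronectin, was at 1800, 1580, 1370, 1820 and 1440 CPM in isotype tumors and 1580, 1040, 947, 922 and 971 CPM in treated tumors. Mouse 53 lay within the isotype range and the other 4 below it (-0.55, SE 0.199, and -0.34 with the length trend removed). The classical targets Col1a1, Acta2 and Postn had log2 fold changes of -0.06 (SE 0.345), 0.17 (SE 0.487) and 0.18 (SE 0.777). Postn was at 68.2 CPM in mouse 53 and at 6.26 to 20.9 CPM in the other treated mice, and without mouse 53 its log2 fold change was -0.73.

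A list of genes that TGF-β1 induced in cultured human cells, matched to mouse symbols, had 8 of 113 genes higher and 15 lower at an unadjusted p under 0.05, shares near the 8.49% and 11.6% of all genes, and a median of -0.02 that was -0.16 without mouse 53. With the length trend removed 3 were higher and 12 lower. Sec24d, a coat protein of vesicles that leave the endoplasmic reticulum, had a log2 fold change of -0.56 (SE 0.177) and of -0.52 with the length trend removed, and Plec, which encodes the very large linker plectin, moved from -0.39 to -0.06. In the list from CD4+ T cells 2 of 40 were higher and 5 lower, with a median of 0.03 that was -0.09 without mouse 53, and with the length trend removed 0 were higher and 2 lower.

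The 12 higher genes with the smallest p among those without overlap were Isg15, Pnp, Sod2, Ifitm6, Ggct, Txn1, Ccl7, Ifi204, Rmdn3, Daxx, Ifit3b and Ubd, with log2 fold changes from 0.33 to 1.60, and all 12 kept an unadjusted p under 0.05 with the length trend removed. Pnp, purine nucleoside phosphorylase, was at 30.5, 28.8, 38.1, 29.7 and 27.3 CPM in isotype tumors and 46.8, 49.3, 54.3, 46.8 and 50.2 CPM in treated tumors. Its log2 fold change was 0.68 (SE 0.136, adjusted p = 0.0891 by edgeR and 0.00483 by DESeq2) and 0.66 with the length trend removed, and its near-identical copy Pnp2 may share its reads. Ggct, an enzyme of glutathione breakdown, was at 5.4 to 6.8 CPM against 7.73 to 10.9 CPM (0.67, SE 0.14). Txn1, thioredoxin, was at 357 to 432 CPM against 457 to 633 CPM, and its log2 fold change of 0.45 (SE 0.0995) was 0.22 with the length trend removed. Ubd, the ubiquitin-like FAT10 that interferon and TNF induce, was at 7.62 to 21 CPM against 27 to 64.1 CPM (1.60, SE 0.39), and Daxx, a histone chaperone, at 44.3 to 57 CPM against 61.7 to 69.8 CPM (0.38, SE 0.0905).

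The 12 lower genes included Scaf1, Fmnl3, Tmem57, Asap1, Phldb1, Smg6, Anxa8, RP24-483G17.1, Slc14a1, Lactb2 and Sh2b3, with log2 fold changes from -0.97 to -0.26, and 7 of the 10 with a transcript length kept an unadjusted p under 0.05 when the length trend was removed. Anxa8, an annexin of epithelial cells, held its difference. It was at 46, 51, 66.6, 49 and 68 CPM in isotype tumors and 35.1, 25.8, 33.8, 31.8 and 28 CPM in treated tumors (-0.86, SE 0.219), and -0.97 with the length trend removed (adjusted p = 0.172 by edgeR). Slc14a1, a urea transporter, was at 18.3 to 35.5 CPM against 10.7 to 18 CPM (-0.97, SE 0.256, and -0.94 with the length trend removed).

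Genes of glycolysis and hypoxia leaned lower, with 6 of 28 lower and 0 higher at an unadjusted p under 0.05 and a median of -0.18. Leaving out each mouse in turn moved the median between -0.24 and -0.09. With the length trend removed 8 of 27 were lower and the median was -0.19. Pdk1, which restrains pyruvate entry into mitochondria, was at 124 to 180 CPM against 87.4 to 129 CPM (-0.51, SE 0.149), Kdm3a, a hypoxia-induced histone demethylase, at 124 to 174 CPM against 99.6 to 140 CPM (-0.48, SE 0.138), and Vegfa, the vascular growth factor, at 187 to 310 CPM against 156 to 235 CPM (-0.40, SE 0.156). Of 40 cell cycle and DNA replication genes 1 was higher and 5 lower (0 and 4 with the length trend removed), shares near or under the 8.49% higher and 11.6% lower of all genes, and their median was near 0. The proliferation marker Mki67 was at 193 to 275 CPM against 151 to 255 CPM, and its log2 fold change of -0.31 (SE 0.135) was -0.06 with the length trend removed.

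The combination was also set against each antibody alone, 5 mice each. Against anti-PD-1 alone 1 gene was called (0.00678%), Isg15, with a log2 fold change of 0.94, a group mean of 61.3 CPM with anti-PD-1 and 117 CPM with the combination, and 0 genes were called when the length trend was removed. Without mouse 53 this comparison gave 1734 calls. At an unadjusted p under 0.05, 1033 genes were higher (7.0%) and 1488 lower (10.1%), and 767 and 891 with the length trend removed. Their total ran from 1386 to 4207 with each mouse left out. Higher were 29 of the 46 type I interferon-stimulated genes, 10 of the 18 MHC class I genes and all 5 immunoproteasome and PA28 genes. Of the 31 constitutive proteasome genes 19 were higher and 1 lower. List counts against each antibody alone and for the interaction were not computed with the length trend removed. Skeletal muscle genes, which mark tissue beside the tumor, had 8 of 11 lower in the combination than with anti-PD-1 alone (median -2.26), against 0 of 11 past this p between the combination and isotype, and the part of tissue content in these values was not tested. Of TGF-β receptors, Smads and feedback inhibitors, whose transcripts are long (median 5082 bases), 9 of 22 were lower, among them Smad7 (-0.33) and Skil (-0.43). Against anti-TGF-β alone 0 genes were called (0.0%). At an unadjusted p under 0.05, 585 were higher (3.96%) and 868 lower (5.88%), and 314 and 533 with the length trend removed. Their total ran from 526 to 3725 with each mouse left out, and was 775 with only the compared groups. Of the 46 type I interferon-stimulated genes 7 were higher, and of the 31 constitutive proteasome genes 14 were higher and 1 lower. Isg15 had a mean of 83.3 CPM with anti-TGF-β alone and a log2 fold change of 0.49 between the combination and that group. Gzma had a mean of 28.2 CPM with anti-TGF-β, 33.8 CPM with anti-PD-1 and 76.1 CPM with both. The test of the interaction, whether the combination differed from the sum of both antibodies on the log2 scale, called 0 genes (0.0%). At an unadjusted p under 0.05 it was positive for 111 genes (0.752%) and negative for 229 (1.55%), with 7 of 11 skeletal muscle genes negative (median -2.59) and 4 of 5 immunoproteasome and PA28 genes (median 0.58), 3 of 18 MHC class I genes and 3 of 46 type I interferon-stimulated genes positive. These comparisons share the combination mice, and the interaction shares the isotype mice too, so their values are not independent of those above.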

How the data were processed

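RNA of 40 CT26 tumors was sequenced as stranded mRNA libraries (TruSeq), 5 mice in each of 8 groups. Per the labels, reads were aligned to GRCm38 with STAR 2.5.3a, handled with SAMtools 1.6 and counted per gene with HTSeq 0.9.1, and the authors deposited raw counts of 54087 genes without normalization. Totals of the 10 mice compared ran from 12156621 to 16232524 counts. Replicate mice differed by more than sampling noise in all 20 pairs of the 2 groups (chi-square per degree of freedom at least 5.8).

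From the counts, genes with at least 1 count (31326) were filtered with filterByExpr (14760 kept), scaled by TMM and tested, 2-sided, with edgeR 4.0.16 (R 4.3.3, limma 3.58.1) by its quasi-likelihood F test with robust estimates, all 40 mice and 8 groups in the same fit, with Benjamini-Hochberg adjustment over all genes and a threshold of 0.05. Standard errors were taken as log2 fold change over √F. CPM values are scaled by TMM. DESeq2 1.42.0 was the alternative test. A list score is the mean log2 CPM with a prior count of 2. Transcript lengths are those of the longest transcript in GENCODE M21. In the length-trend fits, the smooth trend of level on length of each library entered as an offset. Only the edgeR fit and test were run on simulated counts, which held no length trend and no outlying mouse.

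Genes were named by a rule: the 12 higher and 12 lower genes of smallest p without overlap between groups and with at least 5 CPM on average, leaving out numbered gene models, key genes of the pathways, and up to 4 members of each list. Members and lists were chosen with earlier results of these data known, and the length-trend fits were added after the data were seen. The experimental TGF-β1 signatures came from the study's supplement, by symbol only. Results of some genes are not reported here.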

Additional observations from a re-analysis of the deposited data

Results flagged for a closer look

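Values of 5 mice per group were checked for a mouse far from the other 4 (gap to the nearest mouse over 0.71 of the group's range), in 40 list scores and 127 genes. Of 334 sets of 5 mice 37 were past that limit (11.1%), and many of the sets share mice and genes. Chance gives about 1 in 20 for normally distributed values, but CPM values of scarce genes are skewed, so their chance rate is not known here.

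Treated mouse 68 stood apart in B cell and plasma cell genes: its mean log2 CPM for the list was 4.53, and it held 84.2 CPM of Jchain, 314 CPM of Igkc, 14.4 CPM of Mzb1, 27 CPM of Cd79a, 4.58 CPM of H2-Oa, 114 CPM of Ifi30 and 24.2 CPM of Ido1. In the other 4 treated mice Jchain was at 0.741 to 2.35 CPM and Cd79a at 0.227 to 1.06 CPM. In isotype mouse 51 Jchain was at 2.54 CPM against 0.236 to 0.804 CPM in the rest of its group.

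Treated mouse 53 stood apart in 1 list and in single genes. Its mean log2 CPM for ligands and latent TGF-β machinery was 5.54, and it held 9.7 CPM of Lrrc32, 230 CPM of Cd274, 135 CPM of Itgav, 1580 CPM of Fn1, 68.2 CPM of Postn, 140 CPM of Kdm3a, 168 CPM of Hk1 and 1140 CPM of Plec. Cd274 was at 79.4 to 122 CPM and Lrrc32 at 3.54 to 4.81 CPM in the other treated mice.

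Isotype mouse 63, whose library leaned toward short transcripts, had a mean log2 CPM of 5.14 for TGF-β receptors, Smads and feedback inhibitors. It held 142 CPM of Lgals9, 119 CPM of Psmd13, 110 CPM of Tgfb1, 86.6 CPM of Itgav, 21.3 CPM of Zfyve9, 84.2 CPM of Smad4, 7.71 CPM of Cldn5, 16.7 CPM of Egfl7 and 36.8 CPM of Klf7. Itgav was at 128 to 134 CPM and Klf7 at 67.7 to 74.4 CPM in the other isotype mice.

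Isotype mouse 46 stood apart above its group in 5 of the genes checked, with 14.2 CPM of Ccl3, 14.5 CPM of Cxcl2, 25.4 CPM of S100a9, 2.6 CPM of Cxcr2 and 11.1 CPM of Hdc, and it had 68.8 CPM of Fmnl3 against 71.9 to 72.6 CPM in the rest. Treated mouse 66 was low in T cell cytokines (mean log2 CPM 1.73) and in Tnfrsf18 (3.29 CPM), and treated mouse 62 in Ifit3b (13.9 CPM).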

How the results depend on the processing

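No paired analysis was made because each column is a different mouse of 1 treatment group, and the design pairs no mice. Against isotype, 0 genes were called with DESeq2's size factors in edgeR, no filter on low counts, the library part as a covariate, libraries 41 to 60 or 61 to 80 alone and both fits with trends removed. The count was 8 with only the compared groups and 137 with DESeq2's Wald test, 0 to 2006 with each mouse left out, and 0 to 368 with each mouse left out after the length trend was removed. Genes at an unadjusted p under 0.05 numbered 1713 to 4450 with each mouse left out (1111 to 2589 after the length trend was removed), 337 in libraries 41 to 60 alone, 1853 with the length trend removed and 1933 with length and GC trends removed. Against anti-PD-1 the count of calls was 78 with DESeq2, 0 with only the compared groups, with the length trend removed and with length and GC trends removed, and 0 to 1734 with each mouse left out. Against anti-TGF-β it was 1 with DESeq2, and for the interaction 2 with DESeq2 and 0 to 1 with each mouse left out. Why mice 53 and 63 changed these counts was not tested.

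Of 1200 medians of gene lists recomputed under the alternatives, 1161 moved by less than the SD of the list's score between mice. This limit is wide for lists that vary between mice and ignores the sign, so the count does not measure how stable the medians are. The adipocyte median, for example, stayed within it while going from 0.708 to -0.118 without mouse 53. The sign turned for B2m with the length trend removed (-0.063; -0.042 with GC as well), for Arhgdib with both trends removed (-0.002), for Igkc (-0.134), Cd79a (-0.232) and Col1a1 (0.047) in libraries 41 to 60 alone, for Tgfb2 (-0.066) and Postn (-0.265) in libraries 61 to 80 alone, and for Col1a1 with the length trend removed (0.074; 0.076 with GC as well). With each mouse left out, as deposited or after the length trend was removed, the range was -0.171 to 0.204 for B2m, -0.046 to 0.403 for Ptprc, -0.032 to 0.337 for Arhgdib, -0.01 to 0.352 for Tgfb2, -0.231 to 0.192 for Col1a1, -0.074 to 0.34 for Acta2, -0.729 to 0.463 for Postn and -0.465 to 0.036 for Plec. For B2m the negative values all came from fits with the length trend removed. Depth limits the scarce transcripts, such as Ifng, Foxp3, Chil3 and Il6, most.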
